A study of Mus musculus with 24 samples.

Results

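Hearts of wild-type mice given hesperitin alone were compared with hearts of wild-type mice given vehicle, 16 h after treatment, by bulk sequencing of poly(A) RNA. The 2 groups, written H and V here, hold 3 libraries each, which are 6 of the 24 samples of the series and 6 of the 12 in the table of 16 h. The comparison covers every gene of that table, 10393 in all. The labels give hesperitin at 10 mg/kg/day. They do not say what the vehicle was, how many animals stand behind a library, or the animals' age or sex. The other groups at 16 h received doxorubicin at 25 mg/kg (DOX) or doxorubicin with hesperitin (DOXH), and they entered the model only to help estimate the spread between libraries, apart from a side-by-side comparison at the end.

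Hesperitin, usually spelled hesperetin, is a citrus flavonoid, the sugar-free form of hesperidin. Flavonoids of this kind are known in cells as antioxidants, as ligands of the aryl hydrocarbon receptor and as inducers of the NRF2 response, and hesperetin has been described as raising Cisd2, a protein that carries an iron-sulfur cluster at the membranes of endoplasmic reticulum and mitochondria. In heart muscle, most mitochondrial RNA comes from the mitochondrial genome, and fatty acid oxidation and the respiratory chain supply most of the energy. Doxorubicin is an anthracycline whose toxicity to heart muscle limits its use, and H against V gives the response to hesperitin without it.

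The 3 H libraries held 17664060 to 19869050 expected counts and the 3 V libraries 10337722 to 11074450, so every H library was deeper than every V library. The median gene had 339 to 382 counts in H and 197 to 228 in V. On the tissue label, all 12 heart muscle cell markers were in the table, with summed levels of 56746 to 65916 CPM (counts scaled to a common library total, with TMM factors), and 0 of the lymphocyte markers were in it. H replicate 1 stood apart from the other H libraries before any test. Log2 CPM correlated across genes at 0.975 and 0.976 between H replicate 1 and the other H libraries, at 0.991 between H replicates 2 and 3, and at 0.988 to 0.992 among V libraries. With the V libraries, H replicate 1 correlated at 0.983 to 0.984, H replicate 2 at 0.983 to 0.986 and H replicate 3 at 0.980 to 0.982. By that measure H replicate 1 was no further from V than H replicate 3. On the first principal component of the 6 libraries, with 40.4% of the variance, H replicate 1 was at -16.6, H replicates 2 and 3 at 16.8 and 18.7, and the V libraries from -7.44 to -4.90. The V libraries therefore lay between the H libraries on that axis, and values without H replicate 1 are given beside the results below.

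At a Benjamini-Hochberg adjusted p under 0.05, the main test, that of edgeR, called no gene between hesperitin and vehicle, while DESeq2 called a few. In edgeR's quasi-likelihood test, 0 of 10393 genes were called, a share of 0%, and the smallest adjusted p was 0.0730, for Shank3. At an unadjusted p under 0.05 there were 664 genes (6.39%), of which 290 were higher in H (2.79%) and 374 lower (3.6%). DESeq2 called 13 of the 8978 genes to which it gave an adjusted p (0.145%), and limma voom called 0. The 13 included Shank3, mt-Co2, Mbd1 and mt-Nd3, with DESeq2 adjusted p-values of 2.2e-07, 4.6e-06, 5.4e-05 and 0.0029. Nr4a3, Apoo-ps, Caskin2, Slc7a1, Zfhx2, Eng, Noct and 1 row of Zc3h11a were also among them. The adjusted p-values printed below for these genes are those of edgeR. The effects were small: the median absolute log2 fold change was 0.10, 95% of genes were within 0.39, and 34 genes, 13 higher and 21 lower, were beyond 1. The 95% interval of the fold change lay within 1.5-fold in either direction for 7828 genes (75.3%) and within 2-fold for 9887 (95.1%), so for most genes a 2-fold difference lay outside the interval. The labels do not say that the libraries come from separate animals, so the p-values rest on the spread between libraries, estimated over the 12 of 16 h, which may be technical.

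Leaving out H replicate 1 changed that count and no other single library did so to a like extent. Without it, 47 genes were called, 6 higher (0.0577%) and 41 lower (0.394%). H replicates 2 and 3 lay outside the range of V in all 47, which a call from these libraries nearly requires. H replicate 1 itself lay inside the range of V or beyond its other end in 30 of the 47. In every one of the 47 it lay on the V side of both other H libraries. The adjusted p-values of the fit without it take no account of which library was left out. Without H replicate 2, 1 gene was called, and without any one of the other 4 libraries, 0 were. With GC-corrected offsets, H replicate 1 left out, 36 genes were called, and 34 of them were among the 47.

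Part of the difference between H and V followed the base composition of the transcripts. From the decile of genes with the lowest GC content to that with the highest, the median log2 fold change went from 0.08 to -0.12. Among genes at an unadjusted p under 0.05, the lowest decile held 70 higher and 13 lower, and the highest decile 0 higher and 117 lower. Relative to the V mean, log2 CPM moved by -0.07, -0.08 and -0.14 for each 10% of GC in the 3 H libraries. In DOX and DOXH libraries, whose totals of 9255708 to 10591437 were close to those of V, the slopes were -0.05 to -0.10. Those libraries also differ from V by doxorubicin, and what the slopes come from was not tested. With offsets that removed this trend within each library, 0 genes were called, 476 were at an unadjusted p under 0.05 (234 higher, 2.25%, and 242 lower, 2.33%), and the correlation of GC content with the fold change across genes went from -0.30 to 0.00. With the H libraries thinned at random to the mean V depth, 0 genes were called and 642 were at an unadjusted p under 0.05.

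**Figure D1:**
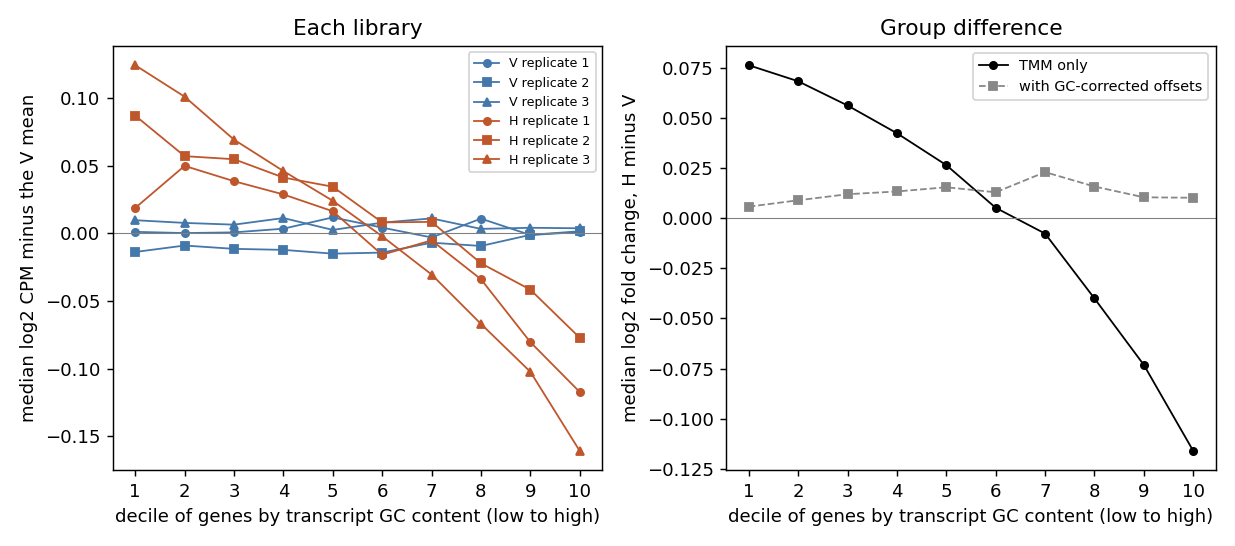
Left, the median log2 CPM of each library minus the V mean (y axis) in each decile of genes by transcript GC content (x axis, low to high); right, the median log2 fold change of H minus V in the same deciles, with TMM scaling only and with GC-corrected offsets. All 3 H libraries slope downwards, and the median difference runs from 0.08 to -0.12 before the correction and stays within 0.01 to 0.02 after it.

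Shank3, a scaffold protein best known from synapses, had the smallest p of all genes. It was at 75.1, 69.4 and 72.8 CPM in V and at 51.5, 48.1 and 50.6 CPM in H. The log2 fold change was -0.53 (SE 0.07, 95% interval -0.69 to -0.38, edgeR adjusted p = 0.0730). The 3 H values lay close together and well below the 3 V values. With GC-corrected offsets the log2 fold change was -0.36, with an adjusted p of 0.774. Caskin2, another scaffold protein, was at 55.2 to 57.9 CPM in V and 38.8 to 45.3 CPM in H, a log2 fold change of -0.43 and, with GC-corrected offsets, of -0.29.

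Mbd1, a protein that binds methylated DNA, was at 77.4, 64.3 and 76.4 CPM in V and at 47.1, 29.6 and 30.6 CPM in H. Its log2 fold change was -1.02 (SE 0.17, edgeR adjusted p = 0.195), and it was the same with GC-corrected offsets. H replicate 1 lay nearer to V than the other H libraries did, and without it the log2 fold change was -1.27 with an adjusted p of 0.00164. Slc7a1, the cationic amino acid transporter that carries arginine into cells, was at 71.7, 68.3 and 61.7 CPM in V and at 45.6, 40.8 and 40.5 CPM in H. Its groups did not overlap, and the difference was -0.67 on the log2 scale (SE 0.13, edgeR adjusted p = 0.431). Zfhx2, a zinc finger homeobox factor, had a log2 fold change of -0.72 at 11.2 to 14.2 CPM in V and 7.12 to 8.00 CPM in H. Eng, the endothelial co-receptor of the TGF-beta family, had -0.44 at 118 to 147 CPM in V and 87.7 to 103 CPM in H, and Rapgef3, an exchange factor activated by cAMP, had -0.44 at 25.6 to 27.8 CPM in V and 18.8 to 20.0 CPM in H. The H and V values of these genes did not overlap, a property that 1619 of the 10393 genes shared (15.6%), 836 of them higher in H (8.04%) and 783 lower (7.53%).

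The 12 largest negative fold changes were taken among named genes with 1 row each, a mean log2 CPM of at least 1, an unadjusted p under 0.05 and no overlap between H and V. Nr4a3, an orphan nuclear receptor induced within minutes of many stimuli, was at 33.9, 23.6 and 15.3 CPM in V and at 11.2, 4.30 and 3.10 CPM in H. At -1.97 on the log2 scale (SE 0.45, edgeR adjusted p = 0.556), it had the most negative value of the 12. Noct, a rhythmic phosphatase, was at 81.7, 77.8 and 53.5 CPM in V and 49.1, 30.4 and 29.6 CPM in H, at -0.97. H19, an imprinted long non-coding RNA, was at 31.0, 29.8 and 13.7 CPM in V and 9.99, 9.38 and 8.89 CPM in H, at -1.40. Siah2, a ubiquitin ligase, was at -1.06, Tmem100, a membrane protein of endothelium, at -0.93, Sbk3, a kinase of heart muscle, at -1.27, and Wt1, a transcription factor of the epicardium, at -1.09. Wt1 was at 9.64, 7.98 and 9.21 CPM in V and at 7.17, 2.72 and 2.68 CPM in H, and was the only epicardial marker in the table. In whole tissue, fewer cells of a type and less RNA in each cell cannot be told apart.

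**Figure D2:**
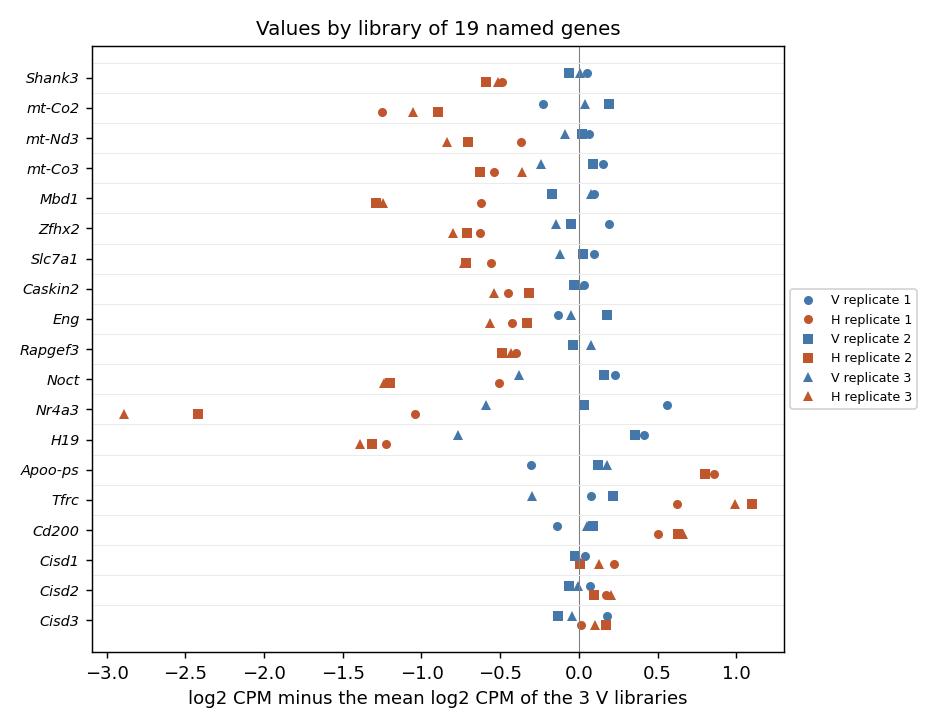
Log2 CPM of 19 named genes in each of the 6 libraries, minus the mean of the 3 V libraries (x axis), with V in blue, H in orange and a marker shape for each replicate number. The 3 H points of Shank3, mt-Co2, Slc7a1 and Eng lie left of all V points, while those of Cisd1 and Cisd3 overlap V.

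Of the 12 genes with the largest positive fold changes under the same limits, 7 have a near-identical transcript elsewhere in the table. Ftl1-ps1, Scp2-ps2, Apoo-ps, Rps6-ps4 and Rpl31-ps8 carry names that mark them as copies of Ftl1, Scp2, Apoo, Rps6 and Rpl31, and Commd1b and Zfp991 share most of their transcript with B3gnt2 and Znf41-ps. Short reads from such a pair can be assigned to either member. Apoo-ps was at 7.71, 10.3 and 10.8 CPM in V and at 17.3, 16.6 and 16.6 CPM in H, at 0.81 on the log2 scale (SE 0.16, edgeR adjusted p = 0.401). Its 586 bases are identical to part of Apoo, a protein of the mitochondrial inner membrane, and Apoo itself was at 100 to 105 CPM in V and 103 to 113 CPM in H, at 0.05. Summed, Apoo-ps and Apoo had a log2 fold change of 0.13 (SE 0.07).

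The other pairs were summed in the same way. Ftl1-ps1, at 1.19 alone, gave -0.18 with Ftl1, the ferritin light chain. Rps6-ps4, at 0.75 alone, gave 0.0083 with Rps6, and Rpl31-ps8, at 0.67 alone, gave -0.014 with Rpl31, both proteins of the ribosome. Scp2-ps2, at 0.83 alone, gave 0.12 with Scp2, a sterol carrier protein, and Zfp991, at 0.68 alone, gave 0.31 with Znf41-ps. B3gnt2 and Commd1b, which share 2455 bases with 1 mismatched or gapped position, had log2 fold changes of -1.05 and 0.72 apart and 0.15 (SE 0.11) summed. Summing left the pair of inducible HSP70 genes, Hspa1a and Hspa1b, where it was, with -1.26 and -1.27 apart and -1.26 (SE 0.34, edgeR adjusted p = 0.589) summed. The gene symbol Zc3h11a stands on 2 rows of the table, whose log2 fold changes of 1.61 and -2.69 became -0.18 (SE 0.08) when they were summed. Near-identical transcripts that are absent from the table could not be summed. Noct, Dnaja1, Hsp90aa1 and Atp5l are among the genes with such partners. For Noct, Gm29084 matches over 1452 bases at 99.7% identity. How reads were divided between these genes and their partners was not tested.

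**Figure D3:**
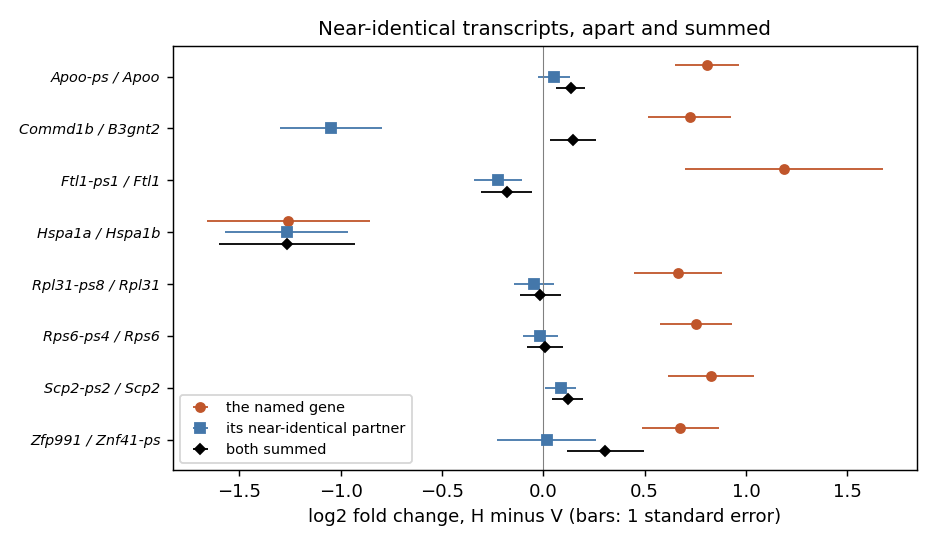
Log2 fold changes of H minus V (x axis, bars 1 standard error) for 8 genes named by the rule, for the near-identical partner of each and for both summed before the fit. Summing brings 7 pairs to between -0.18 and 0.31, and leaves Hspa1a with Hspa1b at -1.26.

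The remaining 5 of these 12 genes were Tfrc, Hectd2, Cd200, Tlcd5 and Btbd8. Tfrc, the transferrin receptor that brings iron into cells, was at 65.5, 72.1 and 50.6 CPM in V and at 95.4, 133 and 124 CPM in H. The groups did not overlap, and the log2 fold change was 0.90 (SE 0.37, 95% interval 0.08 to 1.72, edgeR adjusted p = 0.769). Cd200, a membrane glycoprotein that restrains myeloid cells, was at 28.8, 33.7 and 32.9 CPM in V and at 44.9, 49.0 and 50.1 CPM in H, at 0.59 (SE 0.16, edgeR adjusted p = 0.556). Hectd2, a ubiquitin ligase, was at 0.78, Tlcd5 at 0.57 and Btbd8 at 0.57, each below 13 CPM.

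Of the 13 mRNAs encoded by the mitochondrial genome, 3 were lower in all 3 H libraries than in any V library, as were 7.53% of all genes. The 3 were mt-Co2 and mt-Co3, subunits of cytochrome c oxidase, and mt-Nd3, a subunit of complex I. mt-Co2 was at 1071, 1431 and 1285 CPM in V and at 527, 673 and 605 CPM in H, at -1.07 on the log2 scale (SE 0.17, edgeR adjusted p = 0.195). mt-Nd3 was at 6379, 6185 and 5746 CPM in V and at 4729, 3743 and 3412 CPM in H, at -0.62 (SE 0.11, edgeR adjusted p = 0.325). mt-Co3 was at 3308, 3173 and 2517 CPM in V and at 2049, 1925 and 2319 CPM in H, at -0.52 (SE 0.13, edgeR adjusted p = 0.556). With GC-corrected offsets the log2 fold changes were -1.14, -0.68 and -0.59. The 10 other mitochondrial mRNAs had fold changes between -0.17 and 0.21. mt-Co1, the largest subunit of cytochrome c oxidase, was at 0.07. All 13 were below the V range in H replicate 1, as were 3295 of 10387 over all symbols.

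The 3 mRNAs that were low have nuclear copies in an array on chromosome 1 with which they share nearly every base. In GENCODE M21, mt-Co2 matches Gm28661 over 681 bases and mt-Co3 matches Gm28437 over 783 bases without a mismatch, and mt-Nd3 matches Gm28438 over 345 bases with 1. mt-Atp6, mt-Nd4 and mt-Nd4l also match copies in the same array without a mismatch, over 678 of 681, 876 of 1378 and 294 of 297 bases, and were at 0.21, -0.08 and -0.10. The table holds 0 genes with symbols of this kind, and counts of the copies were not analysed here, so how reads were divided between a gene and its copy was not tested. The stretch that holds the single difference of mt-Nd3 is shown because it is the only place in the compared bases where a read could tell both apart. It lies at chrM:9459-9558 on the plus strand and, for the copy, at chr1:24613020-24613119 on the minus strand of GRCm38, both read from the GENCODE transcripts, with the base that differs in capitals (T3C, counted from the first base shown).
mt-Nd3: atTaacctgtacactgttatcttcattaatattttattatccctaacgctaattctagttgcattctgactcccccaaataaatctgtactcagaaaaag
Gm28438: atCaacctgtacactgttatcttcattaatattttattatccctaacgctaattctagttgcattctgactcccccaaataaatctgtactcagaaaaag

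The CISD family, to which hesperetin has been linked, had values near those of vehicle. Cisd2 was at 71.4, 65.3 and 67.7 CPM in V and at 76.7, 72.8 and 78.6 CPM in H. The 3 H values lay above the 3 V values, and the log2 fold change was 0.16 (SE 0.09, 95% interval -0.04 to 0.36, edgeR adjusted p = 0.851). With GC-corrected offsets it was 0.10. Cisd1, the related protein of the outer mitochondrial membrane, was at 108 to 112 CPM in V and 110 to 128 CPM in H, at 0.12 (95% interval -0.04 to 0.28). Cisd3, the member inside mitochondria, was at 27.8 to 34.4 CPM in V and 30.7 to 34.3 CPM in H, at 0.09 (95% interval -0.19 to 0.37). All 3 intervals lay within 1.5-fold.

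Lists of genes on which a flavonoid or a change of heart metabolism could bear were read next. The 38 lists held 693 genes of the table, of which edgeR called 0. At an unadjusted p under 0.05, 25 were higher and 36 lower (8.80%, against 6.39% of all genes). The median log2 fold change was within 0.2 of 0 in 34 lists, where the median over all genes was 0.01. Of 6 genes of the aryl hydrocarbon receptor list, Ahr alone was at an unadjusted p under 0.05, with H replicate 1 among the V values: 6.65, 6.35 and 5.97 CPM in V and 6.24, 11.4 and 11.3 CPM in H, at 0.61 (SE 0.25, edgeR adjusted p = 0.769). The NRF2 and glutathione list had 2 of 24 genes higher and 1 lower at that level, with a median of -0.01. Nqo1, the quinone reductase used as a marker of the pathway, was at 42.3 to 46.7 CPM in V and 45.1 to 59.0 CPM in H, at 0.23 (95% interval -0.09 to 0.54), and Nfe2l2, which encodes NRF2, was at 74.0 to 88.1 CPM in V and 50.5 to 69.8 CPM in H, at -0.50 (edgeR adjusted p = 0.758). Of 16 enzymes that remove reactive oxygen, 0 were at an unadjusted p under 0.05 in either direction, and 14 had intervals within 1.5-fold.

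No nuclear gene of these energy metabolism lists was called in edgeR. Of 36 complex I genes, 6 were higher and 1 lower at an unadjusted p under 0.05, and of 38 genes of complexes III, IV and V, 5 were higher and 1 lower, where 2.79% of all genes were higher and 3.6% lower. With GC-corrected offsets, 3 and 4 were higher (2.25% of all genes), and 1 and 0 lower. Their medians were 0.05 and 0.04, and the intervals of all 36 and all 38 lay within 1.5-fold. With GC-corrected offsets, fold changes also followed transcript length over all genes. The decile with the shortest transcripts held 69 higher and 9 lower at an unadjusted p under 0.05, with a median of 0.08. The decile with the longest held 9 higher and 39 lower, with a median of -0.02. What part length has in the counts of these lists was not tested. Atp5l, a subunit of ATP synthase, was at 242, 246 and 214 CPM in V and at 301, 262 and 309 CPM in H, at 0.31 (SE 0.08, edgeR adjusted p = 0.556), and Ndufb2, a subunit of complex I, was at 0.26. Of 26 genes of fatty acid oxidation and PPAR response, 1 was lower and 0 higher at that level. The 1 was Pdk4, the kinase that limits pyruvate oxidation, with 331, 185 and 863 CPM in V and 259, 115 and 107 CPM in H. V replicate 3 was the highest of the 6, and the groups overlapped. In H replicate 1, 21 of these 26 genes were below the V range, against 3295 of 10387 over all symbols. Of 14 genes of cholesterol synthesis and uptake, 1 was higher and 0 lower at an unadjusted p under 0.05, and 0 in either direction with GC-corrected offsets. The 1 was Msmo1, a sterol oxidase, at 0.49 (SE 0.22, edgeR adjusted p = 0.769). Counted after the values were seen, 9 of the 14 were above the V range in H replicates 2 and 3, and 3 below it. Over all genes, 18.14% were above and 16.15% below. In H replicate 1, 5 of the 14 were above the V range and 6 below, against 3036 and 3295 of 10387 over all symbols.

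Among the 6 libraries of H and V, H replicate 1 differed from the rest in genes of cardiac stress and of neutrophils. DOX and DOXH libraries were not part of this comparison. Acta1, the skeletal actin that stressed heart muscle re-expresses, was at 885 CPM there, at 104 and 91.3 CPM in the other H libraries and at 97.2 to 139 CPM in V. Myh7, the slow myosin heavy chain, was at 995 CPM in H replicate 1, at 162 and 138 CPM in the other H libraries and at 196 to 444 CPM in V. Nppa and Nppb, the natriuretic peptides, were at 338 and 368 CPM there, and Ankrd1, a stretch-responsive sarcomere protein, at 2543 CPM, each the highest of the 6. Of 15 stress and hypertrophy genes, 9 were highest in this library and the other 6 lowest, where 18.7% of all genes were highest and 21.7% lowest. The highest value stood more than 1.5-fold over the next for 6 of the 9. Over all genes, that was so of 56 genes in H replicate 1 and of 0 to 20 in any other of the 6 libraries. The fitted difference of Acta1, 1.67 with all 3 H libraries, was -0.21 without this one, and those of Nppa and Myh7 went from 0.56 and 0.52 to -0.82 and -1.01.

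All 7 neutrophil markers in the table were likewise highest in H replicate 1. Their summed level was 166 CPM there, 11.7 and 11.9 CPM in the other H libraries and 24.8 to 77.8 CPM in V. S100a9, a calcium-binding protein of granulocytes, was at 64.0 CPM, against 2.48 and 2.94 CPM in H replicates 2 and 3 and 8.25 to 24.9 CPM in V, and S100a8 was at 47.9, 2.54 and 2.30 CPM in the 3 H libraries. Of the 51 cytosolic ribosomal protein genes, 36 were highest in H replicate 1, as were 18.7% of all genes. In the decile of genes with the shortest transcripts, the median log2 CPM minus the V mean was 0.11 in H replicate 1. It was -0.06 and 0.08 in H replicates 2 and 3. The summed heart muscle cell markers were lowest in H replicate 1. What part these differences have in the results was not tested.

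The remaining H libraries shared low values of a group of glucocorticoid-responsive genes that H replicate 1 did not show. This list of 21 genes had a median log2 fold change of -0.39 with all libraries and -1.0 without H replicate 1. Counted after the values were seen, 16 of the 21 were below the V range in H replicates 2 and 3 (76.2%, against 16.1% of all genes), and 7 of these 16 were above it in H replicate 1. Ddit4, an inhibitor of mTOR signalling, was at 65.2, 50.1 and 93.8 CPM in V and at 91.9, 11.5 and 14.9 CPM in H. Tsc22d3, a mediator of glucocorticoid action, was at 110, 119 and 123 CPM in V and at 157, 51.2 and 59.7 CPM in H. Cebpb, a transcription factor of acute and metabolic responses, was at 58.8, 63.0 and 70.7 CPM in V and at 67.4, 21.4 and 23.0 CPM in H. With all libraries their log2 fold changes were -0.82, -0.39 and -0.78, with edgeR adjusted p-values of 0.883, 0.892 and 0.776. Without H replicate 1 they were -2.39, -1.08 and -1.53, with edgeR adjusted p-values of 0.00176, 0.00164 and 0.00164. Errfi1, a feedback inhibitor of the EGF receptor, and Per1 were also called without that library, so 5 of the 21 were, where 0.394% of all genes were called lower. The call of Per1 was lost with GC-corrected offsets (edgeR adjusted p = 0.0659), which left 4.

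**Figure D4:**
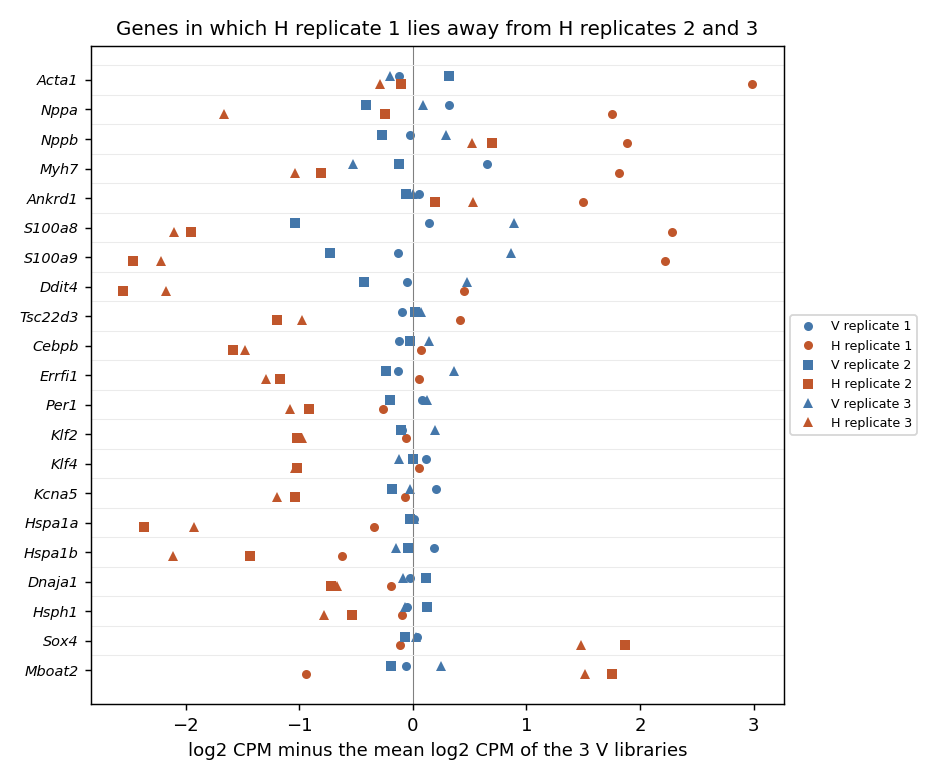
Log2 CPM of 21 genes, chosen after their values were seen, in each of the 6 libraries minus the mean of the 3 V libraries (x axis), with V in blue, H in orange and a marker shape for each replicate number. H replicate 1 (orange circles) lies far right of the rest in Acta1 to S100a9, and near V in Ddit4 to Klf4, where H replicates 2 and 3 are low.

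Clock, early response and ion channel genes included further such members. Per1 and Per2, repressors of the circadian clock that also respond to acute signals, had the most negative fold changes of 19 clock genes. Per2 was at 31.7, 33.3 and 34.1 CPM in V and at 27.9, 19.6 and 19.2 CPM in H, at -0.57 (SE 0.14, edgeR adjusted p = 0.556). Per1 was at 74.2, 61.1 and 76.7 CPM in V and at 58.6, 37.3 and 33.2 CPM in H, at -0.72 (SE 0.20, edgeR adjusted p = 0.556). For both genes all 3 H values lay below the V values, with H replicate 1 nearest to V. The median of the 19 was -0.08, and where 3.6% of all genes were lower at an unadjusted p under 0.05, 3 of the 19 were. Beside both Per genes this was Usp2, a deubiquitinase with a rhythmic level, at -0.38. Of 21 early response genes, Klf2, Klf4 and Nr4a3 were called lower without H replicate 1 (0.394% of all genes were), and 12 were below the V range in H replicates 2 and 3 (16.1% of all genes were). The call of Klf4 was lost with GC-corrected offsets (edgeR adjusted p = 0.0504). Kcna5, a potassium channel of the heart, was at 36.9, 28.3 and 31.5 CPM in V and at 30.6, 15.6 and 14.0 CPM in H, and its log2 fold change went from -0.68 to -1.12 without H replicate 1.

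A further 6 of the genes called without H replicate 1 are described here, chosen after their values were seen. Sik1, a kinase induced by cAMP, Arrdc2, an arrestin-domain protein, and Hand2, a transcription factor of heart development, had log2 fold changes of -1.38, -2.17 and -1.35 without that library. S1pr1, the endothelial receptor for sphingosine 1-phosphate, was at -1.21, and Lyve1, a hyaluronan receptor of resident macrophages and lymphatic vessels, at -0.98. With all 3 H libraries these genes were at -0.83, -0.89, -0.97, -0.69 and -0.50. H replicate 1 lay within the V range for all 5. Zyx, a focal adhesion protein, was at -0.70 without H replicate 1 and at -0.49 with it, and its H replicate 1 value lay below the V range. Of the 6 calls, that of Hand2 was lost with GC-corrected offsets (edgeR adjusted p = 0.0612) and that of Lyve1 with thinned H libraries (0.0690).

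With all 3 H libraries, edgeR called no member of the vascular, immune and matrix lists. Their counts at an unadjusted p under 0.05 stand against 2.79% of all genes higher and 3.6% lower. Of 13 endothelial markers, 3 were lower at that level and 0 higher, and 2 lower with GC-corrected offsets (2.33% of all genes), with a median of -0.10. The 3 were Eng, which DESeq2 called, Vwf and Esam. Vwf, the von Willebrand factor, was at 50.6, 71.2 and 60.9 CPM in V and at 52.2, 39.2 and 33.0 CPM in H, at -0.56 (edgeR adjusted p = 0.726). H replicate 1 lay within the V range and the other H libraries below it. Esam, an endothelial adhesion molecule, was at 50.7, 51.0 and 56.5 CPM in V and at 49.4, 37.8 and 33.7 CPM in H, at -0.39. Pecam1, Cdh5 and Tek, markers carried by most endothelium, were at -0.15, 0.01 and 0.00. Of 10 macrophage markers, 9 had negative values and 1 was at an unadjusted p under 0.05, with a median of -0.21. Of 5 genes of MHC class II presentation, Cd74, the invariant chain, was lower at that level, at 76.0, 104 and 74.5 CPM in V and at 65.3, 57.4 and 55.9 CPM in H. Of 29 collagen and matrix genes, Eln, which encodes elastin, was the 1 at that level, at -0.54. Of 26 interferon-stimulated genes, 0 were at that level in either direction.

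Contractile and calcium-handling lists had medians near 0. Of 24 sarcomere genes, Acta1 was the 1 at an unadjusted p under 0.05, through H replicate 1 as given above, and the median was 0.02. Myl4, the atrial light chain, had the most negative value of the list, at -2.81 (SE 1.60, edgeR adjusted p = 0.842), and was at 1.64, 19.1 and 4.71 CPM in V and at 1.10, 1.45 and 1.12 CPM in H. The groups did not overlap, and V replicate 2 was the highest of the 6. Of 19 calcium-handling genes, S100a1, a calcium sensor of the sarcoplasmic reticulum, was at 0.26 and was the 1 higher at that level.

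Without H replicate 1, the called genes were 6 higher against 41 lower, although more genes lay above the V range in H replicates 2 and 3 (18.1%) than below it (16.1%). Sox4, a transcription factor of progenitor cells, was at 10.8, 10.1 and 10.8 CPM in V and at 9.77, 38.4 and 29.4 CPM in H. Its log2 fold change was 1.29 with all libraries (edgeR adjusted p = 0.556) and 1.68 without H replicate 1 (edgeR adjusted p = 0.00093). Mboat2, an acyltransferase of phospholipids, was at 5.59, 5.08 and 6.91 CPM in V and at 3.04, 19.6 and 16.6 CPM in H. Its 3 H values therefore lay on both sides of V.

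Of 22 chaperones and co-chaperones, 6 were lower and 0 higher at an unadjusted p under 0.05, where 3.6% of all genes were lower and 2.79% higher. With GC-corrected offsets 5 were lower (2.33% of all genes), and 0 of the 22 were called. The median log2 fold change was -0.14. Hspa1a was at 8.20, 7.98 and 8.17 CPM in V and at 6.40, 1.57 and 2.14 CPM in H, and Hspa1b at 7.62, 6.53 and 6.07 CPM in V and at 4.36, 2.48 and 1.55 CPM in H. Every H value of both lay below every V value, and the lowest were in H replicates 2 and 3. Dnaja1, a co-chaperone of HSP70, was at 70.3, 77.2 and 67.1 CPM in V and at 62.6, 43.4 and 44.9 CPM in H, at -0.51 (SE 0.14, edgeR adjusted p = 0.556). Hsph1, its nucleotide exchange factor, was at 42.1, 47.7 and 41.6 CPM in V and at 40.9, 30.1 and 25.4 CPM in H, at -0.45 (SE 0.15, edgeR adjusted p = 0.645). Without H replicate 1, Hspa1a, Hspa1b, Dnaja1, Hsph1 and Hsp90aa1, the inducible HSP90, were called, also with GC-corrected offsets, and their log2 fold changes were -2.11, -1.75, -0.70, -0.66 and -0.47. Hsp90aa1 lay on both sides of V, at 156, 157 and 166 CPM in V and at 187, 111 and 119 CPM in H. In H replicate 1, 10 of the 22 genes were above the V range and 9 below it, against 3036 and 3295 of 10387 over all symbols. In H replicates 2 and 3, 3 of the 22 were above it and 13 below (18.14% and 16.15% of all genes). The mitochondrial chaperones of the list, Hspd1, Hspe1 and Hspa9, were at 0.07, 0.03 and 0.13.

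Heat shock genes are switched on by HSF1 through repeats of the bases GAA in alternating orientation, and the promoters of 3 members are shown because these genes had low values together. Of the 22 genes, 16 had a promoter in the RefSeq table (GRCm38.p6), from 250 bases before to 50 after the start site. The pair of repeats, GAANNTTC or TTCNNGAA, each its own reverse complement and so searched on both strands at once, was present in at least 1 promoter of 12 of the 16 genes (75.0%). Counted the same way, 17% of the 27025 genes with a RefSeq promoter and 13.7% of the 8273 of these in the table held it, and it was in 15.1% of all 32851 promoters. Dnaja1 has 3 promoters in RefSeq, of which only the one shown holds a match. The list was chosen as heat shock genes, so its high share would be found whatever their values were. Hspd1 and Hspe1, which were not low, hold 3 matches each in 1 promoter. Of the 37 genes called without H replicate 1 that had a promoter, 8 held a match (21.6%). These 8 include Hspa1a, Hspa1b, Dnaja1 and Hsph1 of the heat shock list, so this share is not independent of that of the list. A match is a description of the sequence, and its part in the low values was not tested. The 150 bases before the start site follow, with matches in capitals: Hspa1a at chr17:34972157-34972306 on the minus strand, Hsph1 at chr5:149636337-149636486 on the minus strand, and Dnaja1 at chr4:40722318-40722467 on the plus strand.
Hspa1a: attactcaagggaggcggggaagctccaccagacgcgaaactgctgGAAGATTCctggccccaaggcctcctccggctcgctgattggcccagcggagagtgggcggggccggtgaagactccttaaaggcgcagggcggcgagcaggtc
Hsph1: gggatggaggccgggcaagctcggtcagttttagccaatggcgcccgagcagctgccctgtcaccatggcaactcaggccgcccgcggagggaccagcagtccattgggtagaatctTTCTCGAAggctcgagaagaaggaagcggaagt
Dnaja1: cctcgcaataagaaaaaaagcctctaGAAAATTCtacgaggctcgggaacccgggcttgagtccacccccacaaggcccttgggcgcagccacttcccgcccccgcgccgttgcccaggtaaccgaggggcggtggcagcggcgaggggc

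The effect of hesperitin on a background of doxorubicin, DOXH against DOX, rests on other libraries than H against V. There too 0 of 10393 genes were called. At an unadjusted p under 0.05 there were 1958 genes (18.8%), 1156 higher and 802 lower, against 664 (6.39%) in H against V. Shank3 was at 0.11 (SE 0.07), against -0.53 without doxorubicin. Mbd1 was at -0.01 (SE 0.16), against -1.02. mt-Nd3 and mt-Co3 were at 0.50 (SE 0.11) and 0.51 (SE 0.13), against -0.62 and -0.52, and mt-Co2 was at -0.47 (SE 0.17), against -1.07. Noct was at 0.58 (SE 0.21), against -0.97, and Tfrc was at 1.13 (SE 0.42), against 0.90. The 3 CISD genes were at 0.20, 0.22 and 0.31 for Cisd1, Cisd2 and Cisd3. In the test of the difference between both hesperitin effects, 0 of 10393 genes passed in edgeR, 1228 were at an unadjusted p under 0.05, and the smallest adjusted p was 0.172.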

How the data were processed

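Per the labels' protocols, heart RNA with an integrity number above 8 was poly(A)-selected. Reads were single-end, per the series' design text. The values deposited by the authors are expected counts, fractional read estimates for each gene. The submitters' processing notes name RSEM and DESeq2, with GRCm38 (mm10), and for their versions, the annotation and the strand setting, nothing is given in these sources. The deposited table was already filtered: filterByExpr removed none of its 10393 genes, so genes low in all groups were not analysed here. All samples carry the same batch label.

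Counts were rounded, scaled with TMM factors and tested with edgeR 4.0.16 (R 4.3.3; robust quasi-likelihood, 12 libraries of 4 groups, 8 residual degrees of freedom, Benjamini-Hochberg over all genes, threshold 0.05). Log2 CPM used a prior count of 2. GC-corrected offsets came from a natural spline with 4 degrees of freedom per library over genes with at least 5 CPM, on transcript GC of GENCODE M21, which 10385 genes matched. H libraries were also thinned binomially to the mean V total. DESeq2 1.42.0 and limma 3.58.1 voom were alternatives. Transcripts were compared with blastn 2.17.0 (at least 95% identity over 150 bases and 50% of the shorter). Scripts were tested on simulated counts. The members and gene lists were chosen with earlier results of these data known. Named genes were the called ones or, with none called, the 12 largest differences in each direction with mean log2 CPM of at least 1, an unadjusted p under 0.05 and no overlap, up to 2 genes of smallest p per list, and the CISD genes. A gene that the rule names is not reported here. Genes outside it were chosen after their values were seen: Shank3, Zfhx2, Caskin2, Slc7a1, Eng and Rapgef3 by p, mt-Co3 and the called members of a list, Sox4, Mboat2, Sik1, Arrdc2, Hand2, S1pr1, Lyve1 and Zyx from the calls without H replicate 1, Vwf, Esam, Pecam1, Cdh5, Tek, Myl4 and mt-Co1 from their lists, and the genes high in that library. With 3 libraries a group, the depth and spread gave a median 95% interval of 0.30 log2 units either side.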

Additional observations from a re-analysis of the deposited data

How the results depend on the processing

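The count of 0 genes between H and V held with RLE and upper quartile factors, without a filter, at a mean of at least 5 CPM, with limma voom, with a test against 1.5-fold, with only the H and V libraries, with GC-corrected offsets, with length added to them, with thinned H libraries and without mitochondrial genes and globins. With a replicate block it was also 0 (584 genes at an unadjusted p under 0.05), and 0 with GC-corrected offsets added (416). To look for pairing, log2 CPM was taken as the deviation from the mean of each group. These deviations correlated at -0.08, -0.07 and -0.06 between same-numbered V and H libraries, so the numbers are not taken as pairs.

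DESeq2 called 13 genes, 3 higher and 10 lower; the libraries of V, H and DOX gave 1, mt-Co2, 0 higher and 1 lower. Leaving out single libraries gave 0 to 47 in all, 0 to 6 higher and 0 to 41 lower, the most without H replicate 1. Added after seeing the data, limma voom with sample quality weights called 16 (2 higher, 14 lower), GC-corrected offsets without H replicate 1 called 36 (4 higher, 32 lower) and thinned H libraries without it 39 (6 higher, 33 lower). The causes were not tested.

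For 99 genes named, 2326 of 2477 alternative values kept the direction and side of the threshold, 103 passed it (78 of them without H replicate 1) and 48, in 11 genes, reversed. Partners summed gave -0.18 for Ftl1-ps1, -0.014 for Rpl31-ps8 and 0.15 for B3gnt2. Leaving out single libraries gave -0.21 to 2.13 for Acta1, -0.82 to 1.04 for Nppa, -1.01 to 0.95 for Myh7, -2.21 to 1.17 for S100a8 and -2.47 to 1.16 for S100a9, each lowest without H replicate 1. Without H replicate 1, alone, with GC-corrected offsets and with thinning, Acta1 was at -0.21, -0.12 and -0.19, Nppa at -0.82, -0.75 and -0.84, Myh7 at -1.01, -0.92 and -1.0, S100a8 at -2.21, -2.26 and -2.29, and S100a9 at -2.47, -2.51 and -2.44. With voom, Nppa, Myh7, S100a8 and S100a9 were at -0.051, -0.011, -0.54 and -0.77, and with quality weights at -0.64, -0.49, -1.32 and -1.50. With the replicate block, S100a8 and S100a9 were at -0.042 and -0.16, and with GC-corrected offsets added at -0.089 and -0.21. Cdh5, Tek and mt-Co1 changed sign close to 0. Cdh5 was at -0.0082 with voom and -0.0023 with only the H and V libraries. Tek was at -0.00016 and -0.0066 there, at -0.00069 with the V, H and DOX libraries, -0.025 with GC-corrected offsets and also with the block added, -0.0071 with length added, -0.0020 with thinning and -0.026 with thinning and GC-corrected offsets. mt-Co1 was at -8.4e-05 with GC-corrected offsets, -0.00035 with the block added and -0.056 with length added. Leaving out single libraries gave -0.12 (without H replicate 2) to 0.12 (without H replicate 1) for Cdh5 and -0.047 (without H replicate 2) to 0.037 (without V replicate 2) for Tek.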
